A study of Mus musculus with 6 samples.

Results

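Nr4a2, Nxph4, Cplx3, Ctgf, Tmem163, Hs3st4 and Lpar1 are genes that mark neurons of the subplate in the developing mouse cortex. They were chosen by name as markers of these cells, and each symbol matched a single gene, giving 7 of the 55401 gene rows measured. Ctgf carries its newer symbol Ccn2 in the GENCODE M21 annotation used here. The values come from bulk RNA sequencing of cortex from C57BL/6 embryos at E18 (embryonic day 18), with 3 Csmd3-/- libraries and 3 WT libraries. Csmd3 encodes a large membrane protein of the CUB and Sushi type, and the comparison asks how gene expression in the cortex shortly before birth differs when both copies are disrupted. The parents were heterozygous for Csmd3, and the altered allele was inherited from both of them in the Csmd3-/- embryos. The part of Csmd3 that was altered, the sex of the embryos, and whether the libraries of a group came from separate embryos or litters are not stated by the labels. The p-values below therefore measure the spread between these libraries only.

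The subplate is a layer of early-born neurons directly beneath the cortical plate. Its neurons mature ahead of the neurons above them, receive the first thalamic inputs and take part in the guidance of thalamic and cortical axons, and many of them are gone or persist as layer 6b in the adult. The 7 genes have different roles: a nuclear receptor (Nr4a2), a secreted ligand of neurexins (Nxph4), a secreted matricellular protein (Ctgf), a protein of the synaptic release machinery (Cplx3), a zinc-transporting vesicle membrane protein (Tmem163), an enzyme that sulfates heparan sulfate (Hs3st4) and a receptor for lysophosphatidic acid (Lpar1). None of them is restricted to the subplate. Lpar1 is also known from progenitors, oligodendrocytes and vessel-associated cells, and Ctgf from fibroblasts and vessels.

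The deposited totals were 54244288 to 68269607 counts in the Csmd3-/- libraries and 57531791 to 60716370 counts in the WT libraries, and 19844 genes passed the filter on low counts. Levels are given in CPM (counts scaled to a common library size, with a correction for library composition), and a gene is called where its adjusted p is under 0.05. Csmd3 itself stood at 9.82, 10.3 and 9.80 CPM in Csmd3-/- libraries and at 16.6, 13.2 and 15.1 CPM in WT libraries, with a log2 fold change of -0.59 (SE 0.13, adjusted p = 0.0233). The groups did not overlap, but the call was lost when Csmd3-/- library 1, 2 or 3 or WT library 1 was left out (adjusted p 0.0741 to 0.101), so the transcript checks the genotype labels only weakly. Markers of the meninges, the membranes around the brain, stood apart between the groups, since all 10 were higher and their summed level was 588 to 777 CPM in Csmd3-/- libraries and 59.0 to 67.1 CPM in WT libraries. Choroid plexus markers summed to 9.05 to 486 CPM in Csmd3-/- libraries, highest in library 3, and to 0.775 to 1.09 CPM in WT libraries.

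Lpar1 was the only gene of the 7 called in this comparison, at a 2.30-fold higher level in Csmd3-/- cortex. Of the 6 genes that passed the filter on low counts, 1 was called higher and none lower, beside 5.21% of all tested genes called higher and 2.53% called lower. At an unadjusted p under 0.05 the counts were 2 higher (Lpar1 and Nxph4) and 0 lower. The share of all tested genes at that unadjusted threshold was not counted, so these 2 cannot be read as an excess. At an adjusted p under 0.05, DESeq2 and limma-voom also called 1 higher and 0 lower. The groups stood apart, with every Csmd3-/- library above every WT library, for Lpar1 and Nxph4, and for none in the other direction. Over all tested genes 15.6% stood apart upward and 13.5% downward. The median log2 fold change of the 6 tested genes was 0.12, beside 0.00 over all tested genes. The summed level of all 7 genes overlapped between groups, at 199 to 213 CPM in Csmd3-/- libraries and 201 to 241 CPM in WT libraries. Hs3st4, at 103 to 124 CPM, and Nr4a2, at 24.3 to 92.6 CPM, were its largest parts in every library. In bulk RNA, fewer cells of a type and less RNA per cell cannot be told apart.

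**Figure D1:**
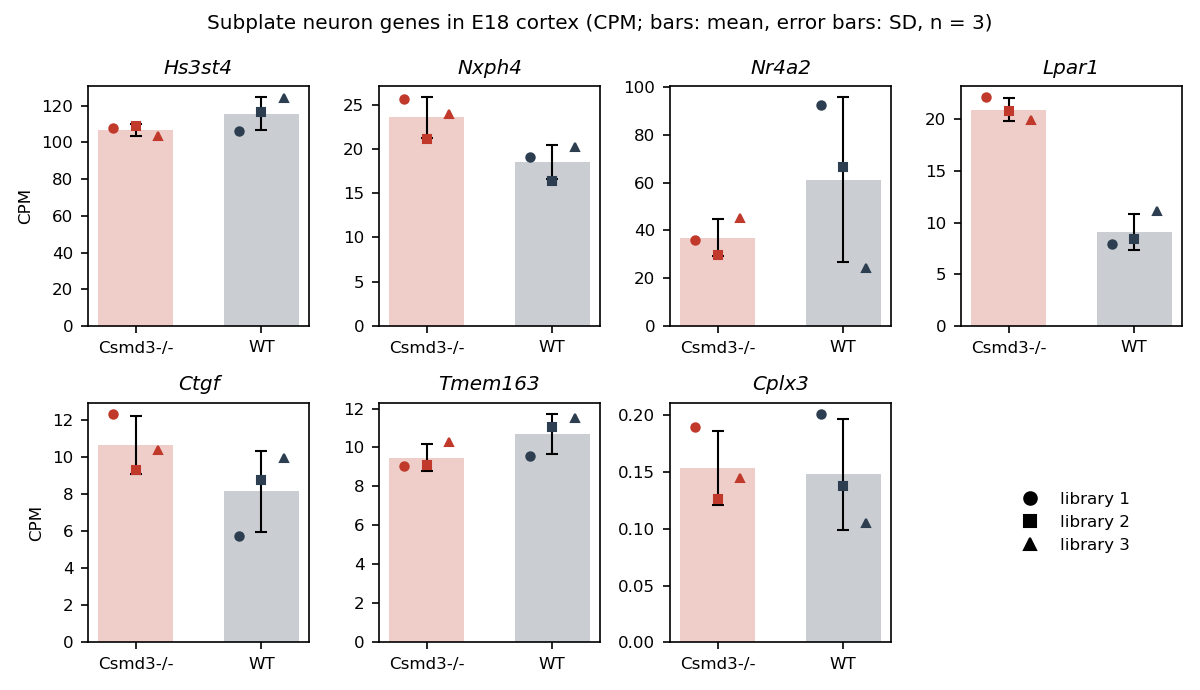
CPM of each of the 7 genes in each library, Csmd3-/- on the left and WT on the right of each panel. Points show libraries, bars group means and error bars the SD (n = 3). Lpar1 lies between 19.9 and 22.1 CPM in Csmd3-/- libraries, all above the WT libraries at 7.89 to 11.1 CPM, whereas Nr4a2 is spread from 24.3 to 92.6 CPM within WT.

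Levels were compared between genes per kilobase of exon. In Csmd3-/- libraries Hs3st4 was highest at 33.5 CPM per kb, followed by Nxph4 (14.1), Nr4a2 (9.11), Lpar1 (4.88), Ctgf (3.73), Tmem163 (2.21) and Cplx3 (0.0519), and no neighbours in that order overlapped over the 3 libraries. In WT libraries Hs3st4 was again highest at 36.3 CPM per kb, followed by Nr4a2 (15.1), Nxph4 (11.1), Ctgf (2.85), Tmem163 (2.49), Lpar1 (2.13) and Cplx3 (0.0501). There Nr4a2 and Nxph4 overlapped, as did Ctgf with Tmem163 and Tmem163 with Lpar1, so those neighbours could not be ordered. Lpar1 stood in place 4 of 7 in Csmd3-/- cortex and in place 6 of 7 in WT cortex. Cplx3 was last in both genotypes.

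Nr4a2 (ENSMUSG00000026826.13, mm10 chromosome 2, 57106830 to 57124003, minus strand) encodes an orphan nuclear receptor that is made in subplate and claustrum neurons of the cortex and is also induced rapidly by neuronal activity. It stood at 36.0, 29.7 and 45.2 CPM in Csmd3-/- libraries and at 92.6, 66.6 and 24.3 CPM in WT libraries. WT library 3 lay below all Csmd3-/- libraries and the other 2 WT libraries lay above them. The means were 37.0 ± 7.76 CPM in Csmd3-/- and 61.2 ± 34.5 CPM in WT (SD, n = 3 each), and the log2 fold change of -0.73 (SE 0.54, 95% confidence interval -2.18 to 0.72, adjusted p = 0.533) was not called. WT library 3 decides this call, since without it the log2 fold change was -1.11 (adjusted p = 0.038) and without WT library 1 it was -0.31 (adjusted p = 0.824). The highest library was 1.52 times the lowest in Csmd3-/- and 3.81 times the lowest in WT. In WT only 0.786% of tested genes had a larger SD of log2 CPM than Nr4a2. Its relatives Nr4a1 (log2 fold change 0.15, adjusted p = 0.667) and Nr4a3 (-0.22, adjusted p = 0.313) were not called.

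RefSeq promoter windows are shown for the genes with the widest spread (Nr4a2), the highest level (Hs3st4) and the called difference (Lpar1). Each holds the 250 bases before a RefSeq start in GRCm38.p6, on the strand of the gene, and contains no annotated exon. The windows lie at chr2:57124004-57124253 (minus strand) for Nr4a2, chr7:123982578-123982827 (plus strand) for Hs3st4 and chr4:58499404-58499653 (minus strand) for the third RefSeq start of Lpar1. That Lpar1 window lies inside the annotated gene. The windows of the first and second Lpar1 starts, near the 5' end of the gene, hold 149 and 187 exon bases and are not shown. Capitals mark TGACG on either strand, the core of the cyclic AMP response element that is bound by CREB-type factors.
Nr4a2: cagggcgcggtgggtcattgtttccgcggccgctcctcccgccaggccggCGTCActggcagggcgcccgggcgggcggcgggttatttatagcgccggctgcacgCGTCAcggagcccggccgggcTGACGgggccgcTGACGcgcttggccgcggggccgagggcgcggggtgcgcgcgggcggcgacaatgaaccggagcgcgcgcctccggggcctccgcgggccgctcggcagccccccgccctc
Hs3st4: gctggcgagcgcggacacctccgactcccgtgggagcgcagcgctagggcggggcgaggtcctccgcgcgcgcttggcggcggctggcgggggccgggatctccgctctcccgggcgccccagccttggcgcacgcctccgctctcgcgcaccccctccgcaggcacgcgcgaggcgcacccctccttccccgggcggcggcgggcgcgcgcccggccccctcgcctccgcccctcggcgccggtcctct
Lpar1: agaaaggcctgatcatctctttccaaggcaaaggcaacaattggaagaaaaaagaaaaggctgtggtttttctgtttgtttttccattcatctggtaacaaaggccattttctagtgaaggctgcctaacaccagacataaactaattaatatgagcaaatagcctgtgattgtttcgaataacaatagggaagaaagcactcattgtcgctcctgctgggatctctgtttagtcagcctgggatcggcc
The Nr4a2 window holds TGACG 4 times, on the gene's strand with the first base 123 and 111 bases before the start and on the other strand at 200 and 144 bases before it. Of 32851 mouse windows of the same length, 17.8% hold it at least once. The 7 windows matched to 5 of the genes (Nr4a2, Cplx3, Tmem163, Hs3st4 and Lpar1) were searched on both strands, and TGACG occurred in that of Nr4a2 only. None held AAAGGTCA, the site of NR4A monomers (in 1.34% of all windows), GGAATG, the site of TEAD factors (12.6%), or TCACACCT, the site of T-box factors (1.12%). These matches are letters in a window and carry no measurement of binding.

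Lpar1 (ENSMUSG00000038668.14, mm10 chromosome 4, 58435255 to 58553898, minus strand) encodes a G protein-coupled receptor for the lipid lysophosphatidic acid. It had deposited counts of 1520, 1315 and 1104 in Csmd3-/- libraries and 471, 486 and 636 in WT libraries. These are 22.1, 20.8 and 19.9 CPM in Csmd3-/- and 7.89, 8.38 and 11.1 CPM in WT. The lowest Csmd3-/- library lay well above the highest WT library, and the spread within each group was small beside the gap. Means were 20.9 ± 1.11 CPM in Csmd3-/- and 9.12 ± 1.73 CPM in WT (SD, n = 3 each), a log2 fold change of 1.20 (SE 0.15, 95% confidence interval 0.87 to 1.53, adjusted p = 0.00146). The call held under each of the 17 other settings tried, including every omission of a library, with values of 1.09 to 1.37 and a highest adjusted p of 0.0343. That p came without Csmd3-/- libraries 2 and 3, which held the most choroid plexus counts, where the log2 fold change was 1.29.

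Of 11 genes of the lysophosphatidic acid pathway, 4 rose (Enpp2, Lpar1, Lpar4 and Lpar6) and 1 fell (Plppr4). The shares of all tested genes were 5.21% called higher and 2.53% called lower. Enpp2 encodes autotaxin, the secreted enzyme that makes the ligand from lysophosphatidylcholine. It stood at 23.8, 18.1 and 29.3 CPM in Csmd3-/- libraries and at 5.24, 7.12 and 6.21 CPM in WT libraries (log2 fold change 1.94, SE 0.19, adjusted p = 0.00044), so its groups stood further apart than those of Lpar1. Among the receptors, Lpar4 rose with a log2 fold change of 1.08 (adjusted p = 0.0107), a call lost without Csmd3-/- library 3 (adjusted p = 0.0562). Lpar6 rose by 1.07 on the log2 scale (adjusted p = 0.00886); its exon overlaps Rb1 on the other strand, and the labels do not state whether counting used strand. Lpar2, at 25.7 ± 1.96 CPM in Csmd3-/- and 28.7 ± 0.563 CPM in WT, was not called (adjusted p = 0.379), and neither were Lpar3 and Lpar5, both at 1.14 CPM or less in every library. Plppr4, a neuronal membrane protein that modulates lipid phosphate signalling at synapses, stood at 17.7 ± 0.861 CPM in Csmd3-/- and 32.1 ± 8.56 CPM in WT (log2 fold change -0.86, adjusted p = 0.0187), and lost its call without Csmd3-/- library 1, 2 or 3 or WT library 2 (adjusted p 0.0613 to 0.0748). Plpp3, a phosphatase that degrades the ligand outside the cell, was not called (0.24, adjusted p = 0.0769).

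Markers of cell types other than neurons were read beside Lpar1. For comparison, 5.21% of all tested genes were called higher and 2.53% lower. Meningeal markers were higher for 10 of 10 genes, as given above. Endothelial markers were higher for 5 of 8 genes, with summed levels of 306 to 391 CPM in Csmd3-/- libraries and 167 to 199 CPM in WT libraries. Mural cell markers were higher for 4 of 7 genes, at 197 to 235 CPM in Csmd3-/- and 128 to 144 CPM in WT. Microglia and macrophage markers were higher for 7 of 8 genes, at 81.4 to 101 CPM in Csmd3-/- and 27.6 to 32.9 CPM in WT. Oligodendrocyte lineage markers were higher for 1 (Pdgfra) and lower for 2 (Olig1 and Olig2) of 7 tested genes, at 116 to 135 CPM in Csmd3-/- and 126 to 160 CPM in WT. Pdgfra is also 1 of the 10 meningeal markers, and Cspg4 is in both the mural and the oligodendrocyte lists, so these counts and sums share genes. Progenitor markers were higher for 4 of 7 genes, at 826 to 875 CPM in Csmd3-/- and 513 to 661 CPM in WT. None of these markers was at 0 in all libraries of a group. The part of these cell types in the Lpar1 and Enpp2 results was not tested.

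**Figure D2:**
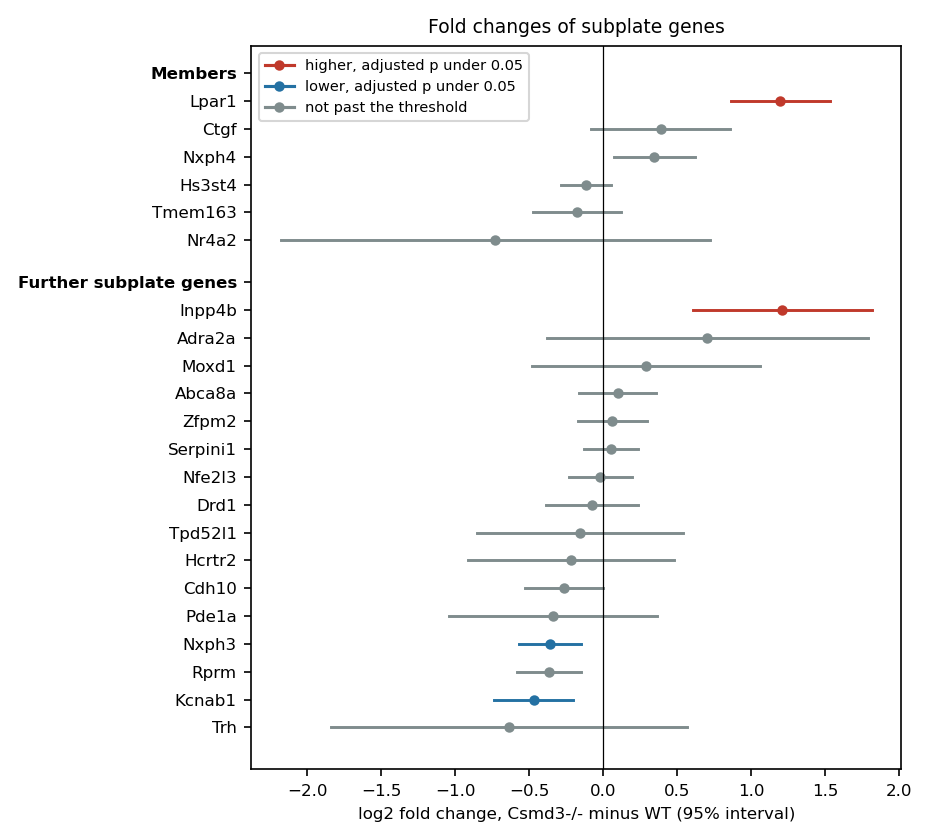
Log2 fold change of Csmd3-/- over WT (x axis) with its 95% confidence interval for the 6 tested subplate genes and the 16 tested further subplate genes (rows). Lpar1 at 1.20 and Inpp4b at 1.21 lie furthest to the right among the called genes, and the interval of Nr4a2 runs from -2.18 to 0.72.

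Nxph4 (ENSMUSG00000040258.6, mm10 chromosome 10, 127525473 to 127534559, minus strand) encodes a neurexophilin, a secreted glycoprotein that binds neurexins. It stood at 25.6, 21.1 and 23.9 CPM in Csmd3-/- libraries and at 19.0, 16.4 and 20.2 CPM in WT libraries. Every Csmd3-/- library was above every WT library, by a narrow margin between the nearest libraries. The means were 23.5 ± 2.27 CPM in Csmd3-/- and 18.5 ± 1.96 CPM in WT (SD, n = 3 each), and the log2 fold change of 0.35 (SE 0.12, 95% confidence interval 0.07 to 0.62, adjusted p = 0.129) did not pass. Of 6 neurexins and neurexophilins, Nxph4 included, 3 fell and none rose, beside 2.53% of all tested genes called lower and 5.21% called higher.

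Nrxn2, which encodes a neurexin, a presynaptic adhesion receptor, stood at 281 ± 17.9 CPM in Csmd3-/- and 372 ± 41.0 CPM in WT (log2 fold change -0.40, adjusted p = 0.0268). The other neurexophilins had lower means in Csmd3-/- libraries, unlike Nxph4. Nxph1 stood at 15.9 ± 0.513 CPM in Csmd3-/- and 24.5 ± 3.55 CPM in WT (-0.62, adjusted p = 0.0162), and Nxph3, which is itself used as a marker of subplate and layer 6b, at 69.1 ± 3.94 CPM in Csmd3-/- and 88.6 ± 9.80 CPM in WT (-0.36, adjusted p = 0.0492). Nxph2 (-0.36, adjusted p = 0.181) was not called. None of the 3 calls held under every omission of a library. Nxph1 was lost without Csmd3-/- library 1, 2 or 3, and Nxph3 and Nrxn2 without any library but WT library 3. Exons of Nrxn2 also overlap genes on the other strand.

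Ctgf (ENSMUSG00000019997.11, mm10 chromosome 10, 24595442 to 24598683, plus strand) encodes a secreted matricellular protein of the CCN family and is a target of the YAP and TEAD transcription factors. It stood at 12.3, 9.28 and 10.4 CPM in Csmd3-/- libraries and at 5.73, 8.75 and 9.95 CPM in WT libraries. WT library 1 was the lowest and WT library 3 lay within the range of the Csmd3-/- libraries, so the groups overlapped. The means were 10.7 ± 1.55 CPM in Csmd3-/- and 8.14 ± 2.18 CPM in WT (SD, n = 3 each), and the log2 fold change of 0.39 (SE 0.21, 95% confidence interval -0.08 to 0.86, adjusted p = 0.322) was not called. An exon of Ctgf overlaps Gm15270 on the other strand, which held 16 to 32 counts in Csmd3-/- libraries and 5 to 12 counts in WT libraries, against 575 to 847 counts in Csmd3-/- and 342 to 570 counts in WT for Ctgf.

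Among the other CCN genes, Wisp1 rose, at 3.96, 2.86 and 3.45 CPM in Csmd3-/- libraries and 0.854, 0.638 and 1.24 CPM in WT libraries (log2 fold change 1.91, SE 0.30, adjusted p = 0.00529). Cyr61 (0.66, adjusted p = 0.0669) and Nov (1.42, adjusted p = 0.0888) had groups that stood apart upward but were not called. Of the 5 tested genes known as YAP and TEAD targets, Ajuba (0.73, adjusted p = 0.0142) and Lats2 (0.38, adjusted p = 0.048) rose. The share of all tested genes called higher was 5.21%. Ajuba lost its call without Csmd3-/- library 3 or WT library 1 or 2, and Lats2, which shares exons with Gm49361, without any library but WT library 3. Lats2 also lost it with RLE scaling (adjusted p = 0.0514), with no filter on low counts (0.0501) and in a fit that was not robust (0.0547). Amotl2 (-0.10, adjusted p = 0.493) was not called. CCN genes are also made by fibroblasts and vessel cells, whose marker levels are given with Lpar1, and the part of those cells here was not tested.

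Hs3st4 (ENSMUSG00000078591.1, mm10 chromosome 7, 123982869 to 124398989, plus strand) encodes a heparan sulfate glucosamine 3-O-sulfotransferase, an enzyme of the Golgi that adds a rare sulfate group to heparan sulfate chains. It stood at 108, 109 and 103 CPM in Csmd3-/- libraries and at 106, 117 and 124 CPM in WT libraries. The lowest WT library lay within the range of the Csmd3-/- libraries, and the libraries of each group were close together. The means were 107 ± 3.04 CPM in Csmd3-/- and 116 ± 8.86 CPM in WT (SD, n = 3 each), and the log2 fold change of -0.11 (SE 0.08, 95% confidence interval -0.29 to 0.06, adjusted p = 0.435) was not called. Of its relatives, Hs3st3b1 rose (0.66, SE 0.15, adjusted p = 0.0249) and Hs3st2 fell (-0.53, SE 0.14, adjusted p = 0.0468), each losing its call without any library but WT library 3. Hs3st2 also shares exon bases with Gm36736 on the other strand. Hs3st1 (0.39, adjusted p = 0.127) and Hs3st5 (-0.31, adjusted p = 0.328) were not called.

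Tmem163 (ENSMUSG00000026347.13, mm10 chromosome 1, 127486546 to 127679548, minus strand) encodes a zinc transporter of synaptic vesicles and endolysosomes. It stood at 9.04, 9.10 and 10.3 CPM in Csmd3-/- libraries and at 9.57, 11.0 and 11.5 CPM in WT libraries, with WT library 1 inside the range of the Csmd3-/- libraries. The means were 9.47 ± 0.701 CPM in Csmd3-/- and 10.7 ± 1.02 CPM in WT (SD, n = 3 each), a log2 fold change of -0.18 (SE 0.13, 95% confidence interval -0.48 to 0.12, adjusted p = 0.502). The level is uncertain, because an exon overlaps the more abundant gene Mgat5 on the other strand, which held 5027 to 6502 counts in Csmd3-/- libraries and 5256 to 5852 counts in WT libraries. Beside 5.21% of all tested genes called higher, 1 of 9 tested zinc transporters, Tmem163 included, rose. This was Slc30a10, known for manganese as well as zinc transport, at 60.0 ± 5.38 CPM in Csmd3-/- and 37.1 ± 6.58 CPM in WT (log2 fold change 0.69, adjusted p = 0.0129), a call lost without Csmd3-/- library 2 or 3 or WT library 1 (adjusted p 0.0527 to 0.0594).

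Cplx3 (ENSMUSG00000039714.9, mm10 chromosome 9, 57599992 to 57606281, minus strand) encodes complexin 3, which clamps and promotes vesicle fusion and is a layer 6b marker of the postnatal cortex. It was close to absent, with deposited counts of 13, 8 and 8 in Csmd3-/- libraries and 12, 8 and 6 in WT libraries, and it did not pass the filter on low counts. With about 4 deposited counts for each sequenced fragment, these sums of 29 counts in Csmd3-/- and 26 counts in WT stand for about 7 fragments in Csmd3-/- and 6 fragments in WT. The ratio of 1.09 had an exact 95% interval of 0.313 to 3.92, which covers counting error only, so a difference of a few fold in either direction was not detectable at this depth.

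The complexins that are made broadly at this stage were far more abundant. Cplx2 stood at 240 ± 6.04 CPM in Csmd3-/- and 288 ± 23.6 CPM in WT (log2 fold change -0.26, adjusted p = 0.065), and Cplx1 at 95.3 ± 6.77 CPM in Csmd3-/- and 115 ± 4.40 CPM in WT (-0.26, adjusted p = 0.0671), and neither was called although the groups stood apart. Of 6 tested complexins, SNARE proteins and their calcium sensor, 2 fell, beside 2.53% of all tested genes. All 6 had every Csmd3-/- library below every WT library, beside 13.5% of all tested genes. For Snap25 the gap was very narrow, from 171.75 CPM in Csmd3-/- library 2 to 172.22 CPM in WT library 2. Neither Snap25 (-0.12, adjusted p = 0.356) nor Stx1a (-0.47, adjusted p = 0.0826) was called. The 2 genes that fell were the calcium sensor Syt1 (-0.47, adjusted p = 0.0109) and the vesicle SNARE Vamp2 (-0.29, adjusted p = 0.0402). Syt1 lost its call without Csmd3-/- library 1 or 2, and Vamp2 without any library but WT library 3 and in a fit that was not robust (adjusted p = 0.0522).

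**Figure D3:**
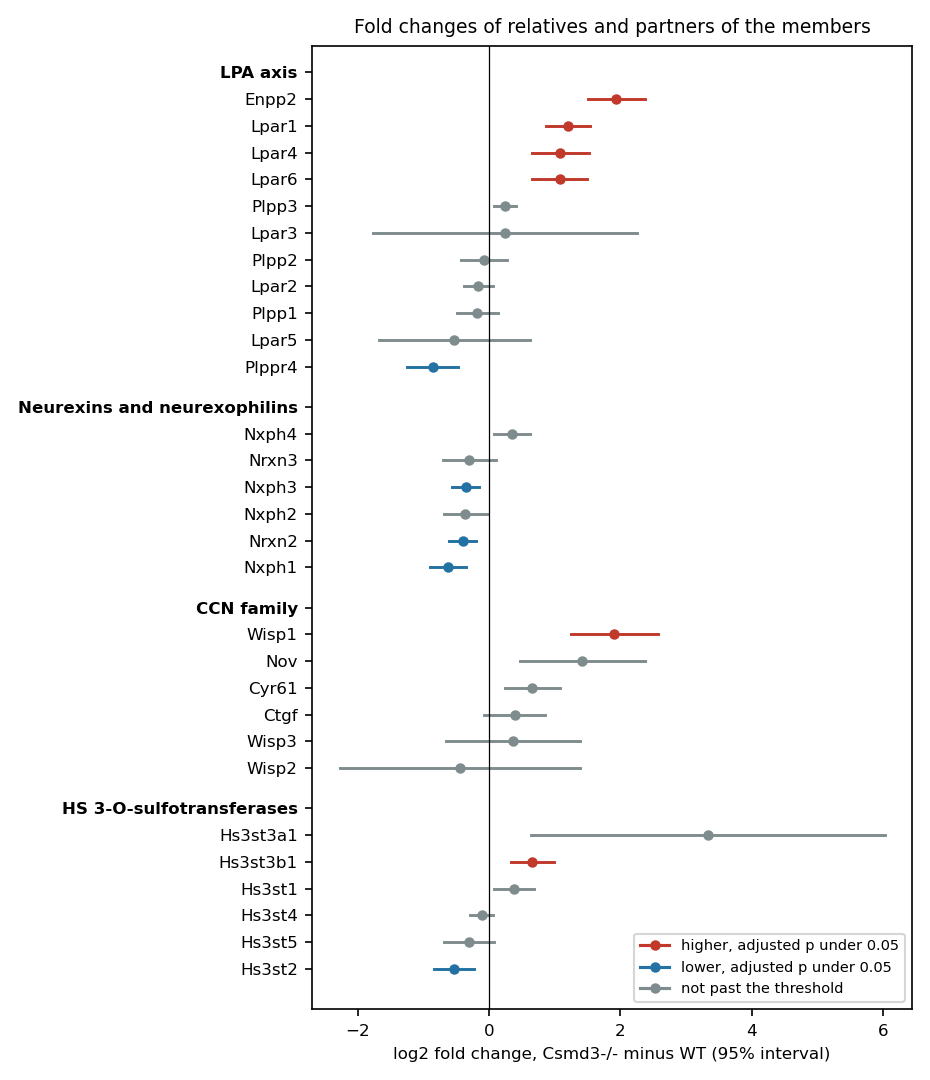
Log2 fold change of Csmd3-/- over WT (x axis) with its 95% confidence interval for tested genes of the lysophosphatidic acid axis, the neurexins and neurexophilins, the CCN family and the heparan sulfate 3-O-sulfotransferases (rows). Colour marks an adjusted p under 0.05. Enpp2 at 1.94 and Wisp1 at 1.91 are the called genes furthest to the right, and the wide interval of Hs3st3a1, which was not called (adjusted p = 0.137), goes with a level of at most 0.190 CPM in WT libraries.

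A wider list of 17 genes that are known as subplate or layer 6b markers was read beside them. Of the 16 tested, 1 rose, 2 fell and 13 did not pass, beside 5.21% of all tested genes called higher and 2.53% called lower. The median log2 fold change of the 16 was -0.11, beside 0.00 over all tested genes. The summed level of all 17 was 491 to 535 CPM in Csmd3-/- libraries and 550 to 604 CPM in WT libraries, which did not overlap. Without Rprm and Nxph3, the genes with the largest difference in mean CPM, the sum over the other 15 did overlap, at 288 to 311 CPM in Csmd3-/- libraries and 293 to 300.4 CPM in WT libraries. Inpp4b, a phosphoinositide phosphatase, stood at 2.56, 3.46 and 3.10 CPM in Csmd3-/- libraries and at 1.02, 1.21 and 1.71 CPM in WT libraries (log2 fold change 1.21, SE 0.27, adjusted p = 0.0257). The potassium channel subunit Kcnab1 stood at 10.5, 9.47 and 10.8 CPM in Csmd3-/- libraries and at 14.9, 13.7 and 13.9 CPM in WT libraries (-0.47, SE 0.12, adjusted p = 0.0432). The gene that fell beside it was Nxph3. The calls of Inpp4b, Kcnab1 and Nxph3 were lost when any library but WT library 3 was left out. Among these lost calls the adjusted p was 0.0531 to 0.104 for Inpp4b.

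The most abundant genes of this list that were not called were Rprm, a brake on cell division that is used as a subplate marker, and Serpini1, the axonal protease inhibitor neuroserpin. Rprm stood at 142, 151 and 137 CPM in Csmd3-/- libraries and at 168, 213 and 173 CPM in WT libraries, all Csmd3-/- values lying below all WT values (log2 fold change -0.36, adjusted p = 0.0502). Serpini1 stood at 121 ± 12.1 CPM in Csmd3-/- and 117 ± 3.14 CPM in WT (0.05, adjusted p = 0.769). Over the list, 2 genes had groups that stood apart upward and 4 downward, and 10 had groups that overlapped, beside shares of 15.6% upward and 13.5% downward over all tested genes.

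Other neuron classes give the setting for these values, beside 2.53% of all tested genes called lower and 5.21% called higher. Markers of neurons in general fell for 4 of 10 genes and rose for none, with summed levels of 6148 to 6456 CPM in Csmd3-/- libraries and 7025 to 8280 CPM in WT libraries. Of 10 layer 6 genes, 2 fell, namely Crym (log2 fold change -0.61, adjusted p = 0.0317) and Ntsr1, a marker of neurons that project to the thalamus (-0.41, adjusted p = 0.0108). The other layer 6 genes were not called, and Nfia (0.35, adjusted p = 0.0582), Bcl11b (0.23, adjusted p = 0.0847) and Fezf2 (0.20, adjusted p = 0.155) had every Csmd3-/- library above every WT library. For 4 genes every Csmd3-/- library was below every WT library, namely Crym, Ntsr1, Tle4 (-0.16, adjusted p = 0.226) and Tbr1. Of all tested genes 15.6% stood apart upward and 13.5% downward. The median over the 10 genes was 0.07, with 6 above 0 and 4 below, and the summed level overlapped, at 1418 to 1680 CPM in Csmd3-/- libraries and 1502 to 1611 CPM in WT libraries. Tbr1, the layer 6 and subplate transcription factor, stood at 347, 341 and 139 CPM in Csmd3-/- libraries and at 355, 351 and 350 CPM in WT libraries, so that Csmd3-/- library 3 alone was low (adjusted p = 0.685). Of 10 upper-layer genes, 2 fell, and none of 4 tested claustrum genes or 6 Cajal-Retzius genes was called. The claustrum lies beside the cortex and shares Nr4a2 with the subplate, and its markers Gnb4 (0.15, adjusted p = 0.347) and Ntng2 (-0.35, adjusted p = 0.0604) were not called. Every Csmd3-/- library was above every WT library for Gnb4 and below every WT library for Ntng2. The summed level of the 5 listed claustrum genes did not overlap, at 243 to 252 CPM in Csmd3-/- libraries and 256 to 289 CPM in WT libraries.

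The order of the WT libraries in Nr4a2 was the reverse of that in most of the other tested subplate genes. Lpar1, Ctgf, Tmem163 and Hs3st4 were lowest in WT library 1 and highest in WT library 3, as were 16.1% of all tested genes. Nr4a2 was highest in WT library 1 and lowest in WT library 3, again like 16.1% of all tested genes. So were 4 of the 16 tested genes of the wider list (25%), namely Moxd1, Adra2a, Pde1a and Tpd52l1. A further 3 of the 16 (18.8%), Inpp4b, Cdh10 and Nfe2l3, were lowest in WT library 1 and highest in WT library 3, like Lpar1. With so few genes, these shares do not set the wider list apart from all tested genes. The alpha-2A adrenergic receptor gene Adra2a stood at 9.05, 7.67 and 2.71 CPM in WT libraries 1 to 3, and the cyclic nucleotide phosphodiesterase gene Pde1a at 18.4, 14.2 and 7.42 CPM. These genes were picked out after their values had been seen, so the grouping is a description.

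**Figure D4:**
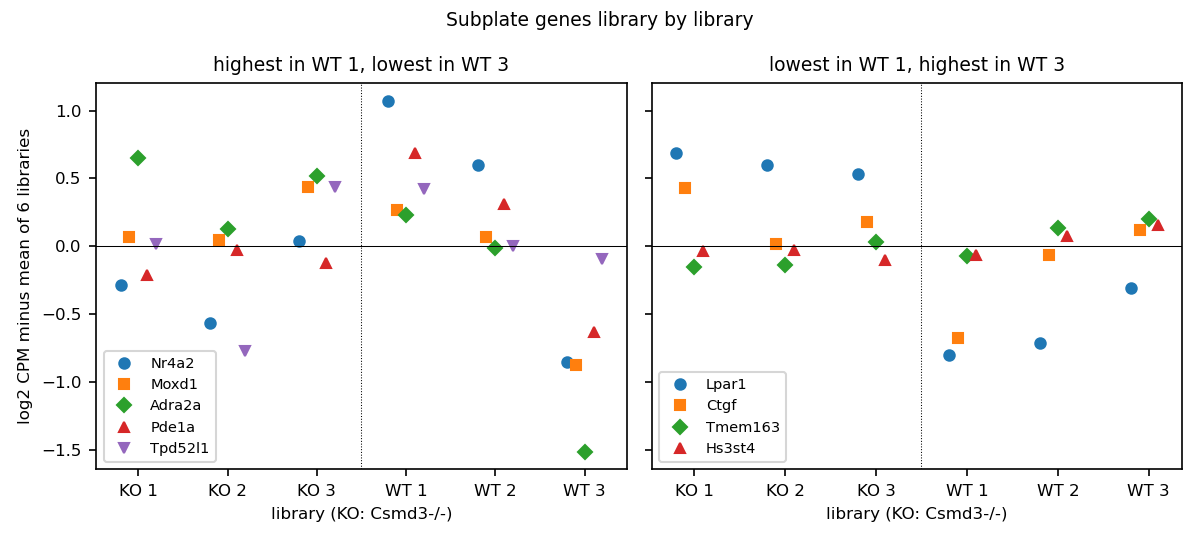
Log2 CPM of single genes minus their mean over the 6 libraries (y axis), by library (x axis, Csmd3-/- left of the dotted line and WT right of it), with each gene as a marker. The left panel holds the genes that were highest in WT library 1 and lowest in WT library 3, and the right panel the 4 genes with the opposite order in WT.

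The genes whose pattern over the 6 libraries was most like each tested gene were found by the root mean square (RMS) difference of centred log2 CPM, which is small for a close match. For Lpar1 they were Fam124b (RMS 0.0896) and the potassium channel tetramerisation domain gene Kctd12b (0.0979), with log2 fold changes of 1.25 for Fam124b and 1.16 for Kctd12b. For Nr4a2 the nearest, B3galt5 (0.201) and Cflar (0.207), had larger RMS values than those of any other gene. The RMS is not scaled by a gene's own log2 range over the 6 libraries, which was 1.93 for Nr4a2 and 0.262 for Hs3st4. It therefore does not rank closeness between genes of unlike range. Cflar, an inhibitor of caspase 8 activation, stood at 6.52, 6.46 and 7.32 CPM in Csmd3-/- libraries and at 13.6, 11.5 and 5.22 CPM in WT libraries. The nearest were Mtrf1l (0.0390) and Dgkb (0.0433) for Nxph4, Nlrc5 (0.0619) and Egln3 (0.0867) for Ctgf, Ndufs4 (0.0135) and Siah2 (0.0365) for Tmem163, and Vps50 (0.0224) and Pik3c3 (0.0236) for Hs3st4. The genotype difference is part of the pattern that was matched, so the fold changes of these genes follow from how they were chosen.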

How the data were processed

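RNA was measured in 6 libraries, 3 Csmd3-/- and 3 WT, grouped by the genotype in the labels. Per the submitters' processing notes, the build was mm10 and the tools included StringTie 1.3.4, HISAT2 2.0.5, Trim Galore 0.4.4 and FastQC 0.11.9. The labels do not state the counting step, its annotation or whether it used strand. The deposited values were treated as estimated counts. They are whole numbers, but low values pile up at multiples of 4 (in Csmd3-/- library 1, 1233 genes have a count of 4, against 430 at 3 and 278 at 5), so 1 fragment adds about 4 counts and precision is that of the count divided by 4.

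Of 55401 rows, 55141 received a name from GENCODE M21, and coordinates are from it. The genes kept by filterByExpr were scaled by TMM and compared with the robust quasi-likelihood test of edgeR 4.0.16 in R 4.3.3, with Benjamini-Hochberg adjustment over all 19844 genes. Adjusted p-values come from this fit of all 6 libraries, except where another setting is named with the value, such as a left-out library or another filter. Those settings were adjusted over their own tested genes, 15405 to 31016 in number. Fold changes are on the log2 scale, Csmd3-/- minus WT, and the SE is their absolute value over the root of the F statistic. The procedure was also run on simulated counts with known changes, in which every gene had the same variability setting. These data differ in that respect, so the simulation gives no error rate for them.

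Named genes were the 7 subplate genes, Csmd3, the called genes of the role and subplate lists with at most 2 of their other most abundant genes, and the 2 nearest genes by library pattern. Marker lists of other cells are given as counts and sums, with single examples. Genes named beyond this were chosen after their values were seen. Some genes of the role lists are not reported here, and the counts leave them out. The members and lists were chosen with earlier results of these data known. Alternatives were other scalings, DESeq2 1.42.0, limma-voom (limma 3.58.1), other filters, a fit that was not robust, the replicate number as a block, counts divided by 4, and omission of libraries.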

Additional observations from a re-analysis of the deposited data

How the results depend on the processing

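Lpar1 was the 1 subplate gene called higher under every alternative, and the fold changes of the 6 tested genes kept their sign in all of them. The number called lower was 0, and 0 to 1 when a library was left out, the 1 being Nr4a2 without WT library 3. Over the wider subplate list the 2 lower genes became 1 with TMM computed without the genes called at least 2-fold higher, 1 in a fit that was not robust and 0 to 4 when a library was left out. The 1 higher gene became 0 to 1 when a library was left out. Of 22 tested relatives (genes of the same families as members), 4 were higher and 3 lower. The shares over all tested genes were 5.21% higher and 2.53% lower. Nxph3 is counted as lower both here and in the wider list. The 3 lower relatives became 1 when not robust, 5 with counts divided by 4 and 0 to 4 when a library was left out. The 4 higher relatives became 7 with DESeq2 and 2 to 5 when a library was left out. Over all genes the 503 lower became 792 with DESeq2 and 137 to 956 when a library was left out, and the 1033 higher became 472 to 1402. Without Csmd3-/- libraries 2 and 3, where the lone library is assumed to vary like the others, 43 genes were lower and 262 higher, with 0 lower and 0 higher in the wider list and 0 and 0 among relatives. The cause was not tested.

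The labels do not say whether the replicate numbers pair the libraries. Deviations of same-numbered libraries correlated at 0.06, 0.01 and -0.01 over the 3 pairs. Such values cannot decide whether same-numbered libraries shared a litter or a batch. With the numbers as a replicate block, 255 genes were lower and 686 higher, 0 lower in the wider list and 1 lower among relatives, and no call of the 7 subplate genes changed (Lpar1 1.21, adjusted p = 0.0116). With that block the calls of Hs3st2, Hs3st3b1, Nrxn2, Nxph3, Lats2, Vamp2, Kcnab1, Plppr4 and Csmd3 were lost (adjusted p 0.0501 to 0.114). Hs3st2 (0.0635) and Nxph3 (0.07) also lost theirs in the fit that was not robust, Nxph3 (0.0532) with TMM without the strongly higher genes, and Kcnab1 (0.0516) with no filter on low counts. Depth limits Cplx3.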
